A study of Mus musculus with 6 samples.

Results

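The genes described here decide, or mark, whether a T cell belongs to the CD4 or the CD8 lineage: Cd4, Cd8a, Cd8b1, Zbtb7b, Runx1, Runx3 and Cbfb. They were taken by name, not by a threshold on measured values but with earlier results of these data known, and are 7 of the 45777 genes in the deposited tables, with 26 of the 129299 annotated transcripts. Poly(A) RNA from splenic CD4+ T cells of 7-week-old female C57BL/6 mice was sequenced after flow cytometry had divided the cells by surface Lrig1, a leucine-rich repeat transmembrane protein, into CD4+Lrig1+ and CD4+Lrig1- cells. No agent, transgene or induced deletion is given for either group, and both groups had passed the same CD4 gate, so that CD4 protein was itself a criterion of the sort. The labels give 3 samples a group. The 4 libraries used here are 2 of each group, held as 1 CD4+Lrig1+ and 1 CD4+Lrig1- library in each of 2 tables, called set 1 and set 2 below. The column names of a further table do not give the Lrig1 group and it was not used. Neither the labels nor the methods say what the tables stand for, or whether a library came from 1 animal or from pooled animals, so the p-values measure only the spread between these libraries, which may be technical.

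In the thymus, precursors that carry both coreceptors become either CD4 helper cells, which recognise peptide on MHC class II, or CD8 cytotoxic cells, which recognise it on MHC class I. Zbtb7b encodes ThPOK, the zinc finger factor that commits cells to the CD4 lineage and keeps the CD8 programme silent. Runx1 and Runx3 are DNA-binding Runt domain factors that act as dimers with the common subunit Cbfb. They silence Cd4 and Zbtb7b in CD8 cells, and Runx3 supports the cytotoxic programme. In CD4 cells outside the thymus the same family has further roles, among them work with Foxp3 in regulatory T cells.

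Library totals ranged from 44865070 to 59977951 estimated reads. Levels are given as counts scaled to library size by the trimmed mean of M-values (CPM). Where genes are compared with each other, FPKM or TPM are used, which also divide by transcript length. Lrig1, on which the cells had been sorted, was at 221 and 129 CPM in the CD4+Lrig1+ libraries of set 1 and set 2 and at 75.4 and 36.7 CPM in the CD4+Lrig1- libraries. Foxp3, the regulatory T cell factor, was at 589 and 615 CPM in CD4+Lrig1+ cells and at 48.9 and 30.7 CPM in CD4+Lrig1- cells, so the groups differed widely in their content of Foxp3 RNA. Because these are bulk samples, fewer cells of a type and less RNA per cell cannot be told apart in any of the values that follow.

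All 7 genes passed the filter on low counts, and each had a lower level in CD4+Lrig1+ than in CD4+Lrig1- cells in both sets. Of all 16123 genes tested, 41.3% were lower and 36.5% higher in both sets. The median log2 ratio over all genes tested was 0.005 in set 1 and -0.06 in set 2. Cd4, with a log2 ratio of -0.048 in set 2, was thus not below the median gene there. Among the 7 the differences ran from 1.31% for Cd4 in set 1 to 53.2% for Cd8a in set 2. In edgeR's quasi-likelihood test over the 4 libraries with Benjamini-Hochberg adjustment none of the 7 passed the threshold of 0.05, and the share of all genes called was 0% (0 genes). The smallest adjusted p of any gene was 0.501, while 674 genes were higher and 227 lower at an unadjusted p under 0.05, no member among them. On the same libraries DESeq2's Wald test called 313 genes and edgeR's exact test 213, again without a member.

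**Figure D1:**
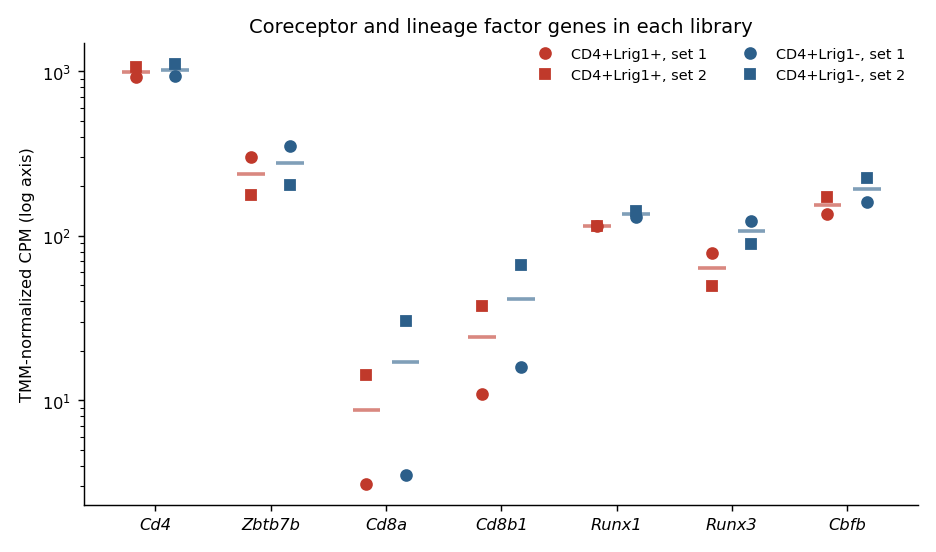
Each point is 1 library, with CPM on a log axis, circles for set 1 and squares for set 2. Horizontal bars are the means of the 2 libraries of a group. Cd4 lies between 924 and 1099.8 CPM, Cd8a and Cd8b1 separate by set more than by group, and Runx1 and Runx3 are the genes whose groups do not overlap.

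Cd4, the coreceptor on which both groups had been gated, was present at 924 CPM in CD4+Lrig1+ and 936 CPM in CD4+Lrig1- cells of set 1 and at 1064 and 1099.8 CPM in set 2. The CD4+Lrig1+ mean was 994 ± 98.9 CPM (SD, n = 2) and the CD4+Lrig1- mean 1018 ± 116 CPM (SD, n = 2). The libraries of a set lay closer to each other than the sets did, and the groups overlapped. The fitted log2 fold change was -0.03 ± 0.39 (SE; adjusted p = 1.0, edgeR), which leaves the coreceptor's own transcript as the member with the smallest difference. Cd4 lies at chr6:124864693-124888247 on the minus strand (GRCm38), and its curated transcript NM_013488 held 91.5% to 97.6% of its FPKM.

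Cd8a and Cd8b1 encode the alpha and beta chains of CD8, the coreceptor of the cytotoxic lineage, and are neighbours on the plus strand of chromosome 6, with 35934 bases between the end of Cd8b1 (chr6:71322788-71337492) and the start of Cd8a (chr6:71373427-71379171). Neither transcript was absent. Cd8b1 was at 10.98 CPM in CD4+Lrig1+ and 16.0 CPM in CD4+Lrig1- cells of set 1, from 571 and 765 counts, and at 37.3 and 66.7 CPM in set 2, from 2143 and 3605 counts. Within a set the CD4+Lrig1+ library was the lower, by 31.2% in set 1 and 44.1% in set 2, and the groups overlapped because both set 2 libraries were above both of set 1. The fitted log2 fold change was -0.78 ± 0.97 (SE; adjusted p = 1.0, edgeR).

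Cd8a had 3.10 CPM in CD4+Lrig1+ and 3.53 CPM in CD4+Lrig1- cells of set 1, from only 161 and 169 counts. In set 2 it had 14.3 and 30.5 CPM. The set 1 difference was within counting error, with a log2 ratio of -0.19 (95% exact binomial interval -0.51 to 0.13), whereas that of set 2 was -1.10 (-1.22 to -0.98). Such intervals cover counting error only and not the spread between animals or sorts. Over the 4 libraries the log2 fold change was -0.97 ± 1.30 (SE; adjusted p = 1.0, edgeR).

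The set mattered more than the group for the CD8 genes. From set 1 to set 2 the level of Cd8a was 4.61-fold higher among CD4+Lrig1+ libraries and 8.65-fold higher among CD4+Lrig1- libraries, and Cd8b1 was 3.40-fold and 4.18-fold higher, while Cd4 moved by 1.15-fold and 1.17-fold. Such shifts between sets were not limited to the CD8 genes. Cd3d, of the T cell receptor complex, was at 218 CPM in CD4+Lrig1+ and 191 CPM in CD4+Lrig1- cells of set 1. In set 2 it was at 732 and 686 CPM, whereas Cd3e moved less, from 472 and 453 CPM to 632 and 594 CPM. Set against Cd4 per transcript length in the same library, Cd8b1 FPKM came to 2.46% and 3.52% of Cd4 FPKM in the CD4+Lrig1+ and CD4+Lrig1- libraries of set 1, and to 7.32% and 12.7% in set 2. Cd8a FPKM was 0.328%, 0.367%, 1.33% and 2.75% of Cd4 FPKM in the same order. The beta chain transcript thus exceeded the alpha chain transcript in every library, by 4.61-fold to 9.58-fold on the FPKM scale, and the order of the groups relative to Cd4 was the same in both sets for each chain.

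**Figure D2:**
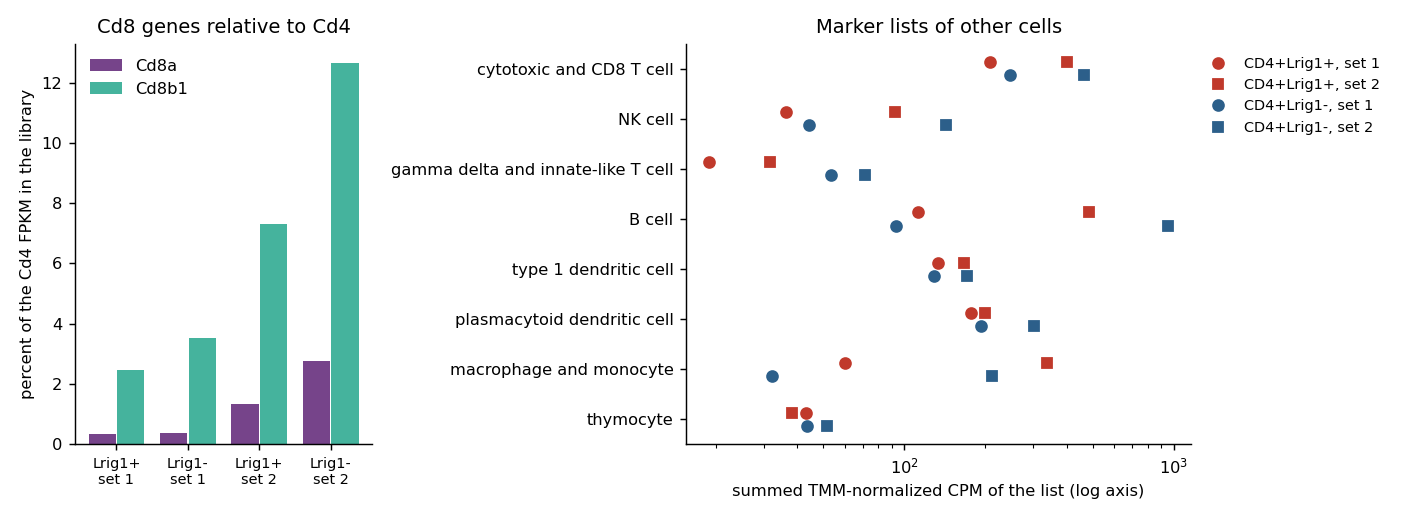
Left, Cd8a and Cd8b1 FPKM as a percent of Cd4 FPKM in each of the 4 libraries. Right, summed CPM (log axis) of marker lists for other cells, 1 point a library. The Cd8 bars of set 2 stand above those of set 1, and the B cell and macrophage sums also lie to the right in set 2.

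Markers of other cells were read alongside. The summed level of 12 B cell markers was 112 CPM in CD4+Lrig1+ and 93.3 CPM in CD4+Lrig1- cells of set 1 and 483 and 953 CPM in set 2, so it was highest in the library in which Cd8a and Cd8b1 were highest. Singly, 9 of the 12 were lower in CD4+Lrig1+ cells in both sets and 0 were higher in both, where 41.3% of all genes were lower in both. The 12 macrophage and monocyte markers summed to 60.2 and 32.4 CPM in set 1 and to 338 and 211 CPM in set 2, and 9 of the 12 were higher in CD4+Lrig1+ cells in both sets. Type 1 dendritic cells, which carry CD8 alpha in mouse spleen, were represented by 11 markers at 133, 129, 166 and 171 CPM (CD4+Lrig1+ and CD4+Lrig1- of set 1, then of set 2). Of these 7 were lower and 3 higher in both sets, the latter including Itgae, an integrin chain that regulatory T cells also carry, at 58.1 and 58.0 CPM in CD4+Lrig1+ cells against 6.68 and 8.05 CPM. Without Itgae, left out after the values had been seen, the other 10 summed to 75.1 and 123 CPM in set 1 and to 108 and 163 CPM in set 2, the lower value in CD4+Lrig1+ cells each time. Markers of plasmacytoid dendritic cells, which express Cd4 in mice, were lower in CD4+Lrig1+ cells in both sets for 7 of 8 genes, with sums of 176 and 193 CPM in set 1 and 199 and 302 CPM in set 2. Pacsin1, the gene that ran the other way, gave 114 and 95.8 CPM of these sums in set 1 and 77.8 and 68.9 CPM in set 2. Spib, also on the B cell list, gave 7.48 and 11.9 CPM in set 1 and 35.0 and 84.5 CPM in set 2. The part of these other cells in the Cd8 and Cd4 values was not tested.

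Among 18 genes of the cytotoxic and CD8 T cell programme, 12 were lower and 5 higher in CD4+Lrig1+ cells in both sets, with a median log2 fold change of -0.66 against -0.04 over all tested genes. Their summed level differed less, at 207 and 246 CPM in the CD4+Lrig1+ and CD4+Lrig1- libraries of set 1 and 401 and 466 CPM in set 2. Cst7, which was higher in CD4+Lrig1+ cells, gave 62.5 and 8.23 CPM of these sums in set 1 and 139 and 20.2 CPM in set 2. Prf1, which encodes the pore-forming protein perforin, was at 9.92 and 15.0 CPM in CD4+Lrig1+ cells of set 1 and set 2 and at 34.5 and 69.3 CPM in CD4+Lrig1- cells. Klrk1, which encodes the activating receptor NKG2D, was at 1.79 and 4.42 CPM against 17.3 and 23.0 CPM. Both were among the genes named for the smallest unadjusted p of the list. Their groups did not overlap, and the same direction without overlap was found in 11.8% of all genes tested. The 5 genes that ran the opposite way, named whether or not the rule for named genes took them, were Eomes, Cst7, Klrg1, Gzmk and Crtam. Eomes, a T-box factor of memory CD8 and NK cells, was at 24.1 and 41.3 CPM in CD4+Lrig1+ cells against 4.20 and 9.18 CPM. Klrc1 and Klrc2, of the NKG2 receptor family, were lower like Prf1 and Klrk1, with fitted log2 fold changes of -3.44 ± 0.55 (SE; adjusted p = 0.55, edgeR) and -2.72 ± 0.65 (SE; adjusted p = 0.649, edgeR), and no gene of the list passed that test.

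Of 11 NK cell markers 10 were lower and 1, Eomes, higher in both sets. Eomes and Gzma were also on the cytotoxic list, so the lists share genes. The NK cell sum was 36.4 and 44.4 CPM in the CD4+Lrig1+ and CD4+Lrig1- libraries of set 1 and 92.7 and 143 CPM in set 2. Eomes alone gave 24.1 and 4.20 CPM of these sums in set 1 and 41.3 and 9.18 CPM in set 2. Of 8 genes of gamma delta and innate-like T cells, 7 were tested and all 7 were lower in CD4+Lrig1+ cells in both sets, with sums of 18.8 and 53.4 CPM in set 1 and 31.8 and 71.6 CPM in set 2. Blk, also on the B cell list, gave 3.75 and 4.03 CPM of these sums in set 1 and 14.4 and 30.2 CPM in set 2. Zbtb16, the PLZF factor of innate-like T cells, was at 5.83 and 1.31 CPM in CD4+Lrig1+ cells of set 1 and set 2 and at 23.2 and 4.52 CPM in CD4+Lrig1- cells. Of 6 thymocyte genes 3 passed the low-count filter. Rag2, needed for receptor rearrangement in CD4+CD8+ thymocytes, was at 0 in every library. Dntt, which adds bases at receptor junctions, was at 2.62 and 2.59 CPM against 7.75 and 14.1 CPM, the only 1 of the 3 lower in both sets. The other tested genes changed direction between set 1 and set 2, with log2 ratios of -0.74 and 0.71 for Arpp21 and 0.20 and -0.06 for Cd1d1.

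Zbtb7b, which encodes the CD4 commitment factor ThPOK, was at 299.7 CPM in CD4+Lrig1+ and 349 CPM in CD4+Lrig1- cells of set 1 and at 177 and 205 CPM in set 2. It was 14.1% and 13.5% lower in CD4+Lrig1+ cells in the 2 sets, the most similar pair of differences in the family. The groups overlapped, since set 2 was below set 1 in each group (0.590-fold and 0.586-fold). The group means were 238 ± 86.8 and 277 ± 102 CPM (SD, n = 2), and the log2 fold change was -0.22 ± 0.49 (SE; adjusted p = 1.0, edgeR).

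Reads of Zbtb7b (chr3:89377644-89393673, minus strand) were divided between an upstream and a downstream group of transcript starts, with the starts shown 5707 bases apart. The 250 bases before the curated start of each group are shown because its reads were shared out differently between the sets, in the direction of transcription and with every TGTGGT or its reverse complement ACCACA, a core sequence bound by Runx factors, in capitals.
Zbtb7b upstream start, chr3:89393379-89393628, minus strand: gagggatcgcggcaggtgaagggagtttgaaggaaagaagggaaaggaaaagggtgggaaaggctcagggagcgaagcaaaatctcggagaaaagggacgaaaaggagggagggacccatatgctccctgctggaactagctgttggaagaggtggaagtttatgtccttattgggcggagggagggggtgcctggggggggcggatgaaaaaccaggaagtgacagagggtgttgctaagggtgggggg
Zbtb7b downstream start, chr3:89387672-89387921, minus strand: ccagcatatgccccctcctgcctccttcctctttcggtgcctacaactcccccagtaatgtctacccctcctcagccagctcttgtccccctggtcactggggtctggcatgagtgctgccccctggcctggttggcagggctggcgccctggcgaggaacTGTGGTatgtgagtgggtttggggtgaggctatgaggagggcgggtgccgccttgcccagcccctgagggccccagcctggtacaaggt
The upstream window held no match and the downstream window 1, beginning 89 bases before the start. Among 32851 mouse promoter windows in RefSeq (GRCm38.p6), 14% held at least 1 match on either strand in these 250 bases, so a match is common and is only a description of the letters. Transcripts from the upstream starts took 73.9% and 76.4% of Zbtb7b FPKM in the CD4+Lrig1+ and CD4+Lrig1- libraries of set 1 and 70.6% and 51.4% in set 2. The library that stood apart was CD4+Lrig1- of set 2, in which downstream transcripts were at 105 CPM against 54.8 CPM in its CD4+Lrig1+ partner, compared with 87.2 and 82.6 CPM in set 1. The differences of the upstream starts were of opposite direction in the sets, with log2 ratios of -0.27 and 0.29. The division of reads among single transcripts was unsteady in the same library. Upstream NM_009565 had 8534 and 9704 counts in CD4+Lrig1+ and CD4+Lrig1- cells of set 1 and 4402 and 572 in set 2. Upstream XM_006501316 had 902, 918, 656 and 2355 counts in the same order.

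Runx3, the Runx factor most closely tied to the CD8 and cytotoxic lineages, was at 78.1 CPM in CD4+Lrig1+ and 124 CPM in CD4+Lrig1- cells of set 1 and at 49.6 and 89.6 CPM in set 2. It was 36.8% and 44.7% lower in CD4+Lrig1+ cells, and the higher CD4+Lrig1+ library was below the lower CD4+Lrig1- library. Groups without overlap in that direction were found for 2 of the 7 members, Runx3 and Runx1, and for 11.8% of all genes tested. The means were 63.8 ± 20.2 and 107 ± 24.0 CPM (SD, n = 2). With a log2 fold change of -0.74 ± 0.39 (SE) Runx3 had the smallest unadjusted p of the 7, 0.129 (edgeR), and an adjusted p of 1.0.

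Runx3 (chr4:135120645-135177990, plus strand) has an upstream (distal) and a downstream (proximal) start, 31900 bases apart, and its upstream transcript differed between the groups by more than the sum of its downstream transcripts did. The windows before both starts are shown in the same form, from RefSeq (GRCm38.p6).
Runx3 upstream start, chr4:135120395-135120644, plus strand: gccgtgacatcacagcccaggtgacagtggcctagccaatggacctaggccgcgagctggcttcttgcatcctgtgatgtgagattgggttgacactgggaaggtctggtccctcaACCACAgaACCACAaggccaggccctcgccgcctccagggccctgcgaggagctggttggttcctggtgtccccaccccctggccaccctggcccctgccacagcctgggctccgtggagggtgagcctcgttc
Runx3 downstream start, chr4:135152295-135152544, plus strand: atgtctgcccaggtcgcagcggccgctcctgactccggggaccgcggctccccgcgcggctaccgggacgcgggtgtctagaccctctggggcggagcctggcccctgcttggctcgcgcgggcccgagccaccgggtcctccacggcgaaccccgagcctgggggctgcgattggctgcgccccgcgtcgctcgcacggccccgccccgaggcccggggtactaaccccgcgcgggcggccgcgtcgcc
The upstream window held 2 copies of the Runx core, beginning 134 and 126 bases before the start, a number reached by 1.27% of all windows, and the downstream window none. The copies lie in an 18-base run, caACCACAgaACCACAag, which was also the longest stretch that the upstream window shared with that of Runx1, where it begins 26 bases after the start, within transcribed sequence. Of the 32851 windows, taken as 300 bases with the first 50 transcribed, 4 held the run: those of Runx1, Runx2, Runx3 and Gm16225, the last of which covers the Runx3 window on the opposite strand.

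Estimated counts of the upstream Runx3 transcript, NM_019732, were 1483 in CD4+Lrig1+ and 3196 in CD4+Lrig1- cells of set 1 and 127 and 2089 in set 2. As CPM these were 28.5 and 66.7 in set 1 and 2.21 and 38.7 in set 2. CD4+Lrig1+ cells were thus the lower in both sets, 2.34-fold in set 1 and 17.5-fold in set 2, and the groups did not overlap. The downstream transcripts summed to 2578 and 2722 counts in set 1 and to 2721 and 2752 in set 2, or 49.6, 56.8, 47.4 and 51.0 CPM, a difference of 1.15-fold and 1.08-fold. Upstream transcripts therefore made up 34.4% of Runx3 FPKM in CD4+Lrig1+ against 51.8% in CD4+Lrig1- cells of set 1, and 4.14% against 40.1% in set 2. A difference of 2-fold or more in this direction in both sets was found in 4.69% of the 26689 transcripts with a mean of at least 100 counts, and the Runx3 transcript was singled out after its values had been seen.

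Shared exons limit these estimates, because StringTie divides the reads of common exons among transcripts by a model. Single downstream transcripts could differ as strongly as the upstream one, since the division within the downstream group was unsteady, with NM_001369050 at 1933, 2186, 2721 and 866 counts and XM_006538506 at 645, 536, 0 and 1886 counts (CD4+Lrig1+ and CD4+Lrig1- of set 1, then of set 2).

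**Figure D3:**
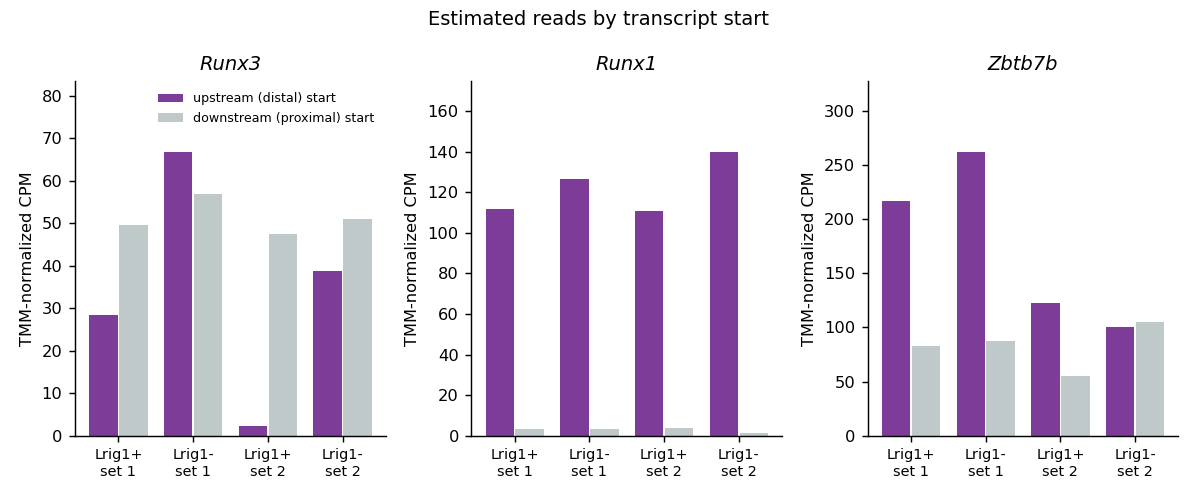
Bars are the CPM of transcripts that begin at the upstream or the downstream start of Runx3, Runx1 and Zbtb7b, 1 pair of bars a library, on linear axes that differ between panels. Upstream Runx3 is lower in CD4+Lrig1+ than in CD4+Lrig1- cells in both sets while downstream Runx3 lies between 47.4 and 56.8 CPM, and Runx1 comes almost wholly from its upstream start.

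Runx1, the Runx factor of early haematopoiesis and of resting T cells, was at 115 CPM in CD4+Lrig1+ and 130 CPM in CD4+Lrig1- cells of set 1 and at 114 and 141 CPM in set 2. Both CD4+Lrig1+ libraries were below both CD4+Lrig1- libraries, but the difference was small, 11.5% and 19.1%. The means were 115 ± 0.445 and 136 ± 8.13 CPM (SD, n = 2), with a log2 fold change of -0.24 ± 0.28 (SE; adjusted p = 1.0, edgeR). Like Runx3, Runx1 (chr16:92601466-92826074, minus strand) has an upstream and a downstream start, 128745 bases apart, and the upstream window is shown for comparison with that of Runx3.
Runx1 upstream start, chr16:92826075-92826324, minus strand: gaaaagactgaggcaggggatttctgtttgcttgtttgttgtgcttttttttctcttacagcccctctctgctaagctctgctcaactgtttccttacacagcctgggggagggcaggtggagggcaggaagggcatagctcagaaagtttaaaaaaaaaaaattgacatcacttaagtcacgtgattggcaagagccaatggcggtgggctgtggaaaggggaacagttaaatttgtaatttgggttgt
These 250 bases held no Runx core match, and the first 50 transcribed bases held 2. In contrast to Runx3, transcripts from the upstream start supplied 97.4% to 99.1% of Runx1 FPKM in the 4 libraries, with 112 and 126 CPM in CD4+Lrig1+ and CD4+Lrig1- cells of set 1 and 111 and 140 CPM in set 2. Downstream Runx1 was at 3.15 and 3.45 CPM in set 1 and at 3.59 and 1.50 CPM in set 2.

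Cbfb, the subunit that both Runx proteins need for stable DNA binding, was at 135 CPM in CD4+Lrig1+ and 160 CPM in CD4+Lrig1- cells of set 1 and at 172 and 226 CPM in set 2. It was the lower in CD4+Lrig1+ cells by 15.4% and 23.9%, although set 2 was above set 1 and the groups overlapped. The means were 153 ± 26.0 and 193 ± 46.8 CPM (SD, n = 2), and the log2 fold change was -0.33 ± 0.36 (SE; adjusted p = 1.0, edgeR). All 4 of its transcripts begin at the same base (chr8:105170674-105217989, plus strand).

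**Figure D4:**
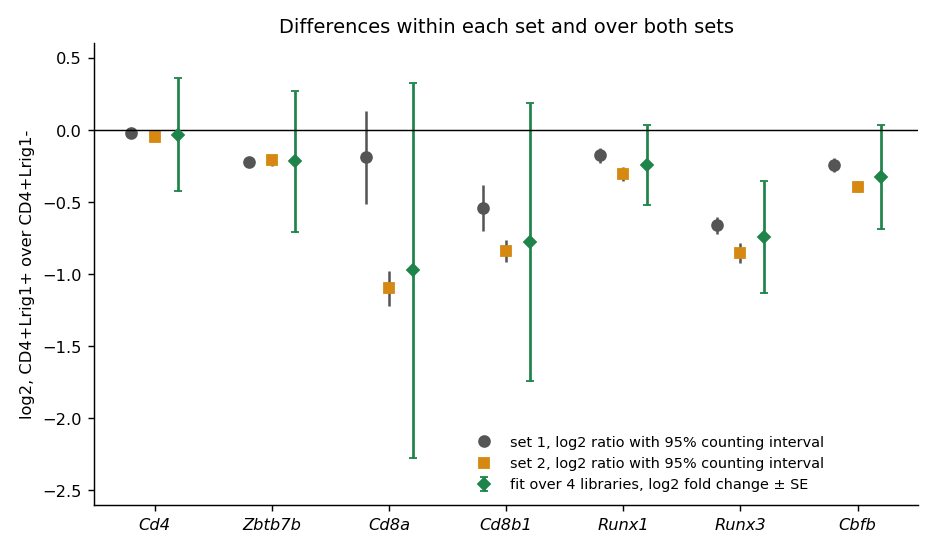
The y axis is log2 of the level in CD4+Lrig1+ cells divided by that in CD4+Lrig1- cells. Circles and squares are set 1 and set 2 with 95% counting intervals, and diamonds are the edgeR log2 fold change over 4 libraries ± SE. Every ratio lies below 0, the set 1 interval of Cd8a crosses 0, and the SE bars of Runx3 are the only ones that stay below 0.

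The differences within a set were steadier than the levels across sets. In a fit with the set as a term, which leaves 1 residual degree of freedom, edgeR's quasi-likelihood test called 5 of the 7 lower in CD4+Lrig1+ cells and none higher, where 12.8% of all genes were called lower, 14.6% higher and 27.4% in either direction. Runx3 fell by 0.76 on the log2 scale in that fit (SE 0.08, adjusted p = 0.000502) and Cd8b1 fell by 0.70 (SE 0.10, adjusted p = 0.00278). Cbfb fell by 0.32 (adjusted p = 0.0224), Cd8a by 0.73 (adjusted p = 0.0366) and Runx1 by 0.24, just within the threshold (adjusted p = 0.0495). Zbtb7b had a log2 fold change of -0.22 (adjusted p = 0.0815) and Cd4 one of -0.03 (adjusted p = 0.847). The median log2 fold change of the 7 in the fit without the set was -0.33 against -0.04 for all genes tested. When only curated transcripts were summed for the same fit, an alternative added after the data had been seen, no gene was called (0% of 12385, 2873 of them at an unadjusted p under 0.05) and the adjusted p-values of the 7 ran from 0.149 to 0.87.

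Levels per transcript length gave the order of the family within a library. In both set 1 libraries the order by TPM was Cd4, Zbtb7b, Cbfb, Runx3, Runx1, Cd8b1 and Cd8a. Cd4 was at 753 and 787 TPM there, Zbtb7b at 191 and 229.5 TPM, and Cd8a at 2.47 and 2.89 TPM. In set 2 Cbfb, at 90.5 and 109.9 TPM, stood above Zbtb7b, at 69.2 and 73.7 TPM, and Cd8b1, at 38.4 and 63.6 TPM, had moved above both Runx genes. Runx3 and Runx1 were neighbours in every library, at 53.2 and 49.7 TPM in CD4+Lrig1+ cells of set 1 and at 35.0 and 34.7 TPM in CD4+Lrig1- cells of set 2, and their order was not the same in all libraries.

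Lineage regulators listed for comparison with the CD4 against CD8 choice, not all with a known part in it, were divided. Of 20 such genes 9 were higher and 9 lower in CD4+Lrig1+ cells in both sets, none was called without the set term, and with it 6 rose and 5 fell, where 14.6% of all genes rose and 12.8% fell. As for the 7 members, the calls made with the set term in this and the following lists were absent when only curated transcripts were summed. Tox, an HMG box factor needed for CD4 lineage development, was at 141 and 185 CPM in CD4+Lrig1+ cells of set 1 and set 2 against 62.7 and 85.1 CPM in CD4+Lrig1- cells, and its relative Tox2 at 45.4 and 45.4 CPM against 4.74 and 3.91 CPM. The opposite held for Satb1, a chromatin organiser of T cells, at 355 and 226 CPM against 927 and 796 CPM, and for Lef1, an HMG box factor shared by thymocytes and naive T cells, at 282 and 243 CPM against 619 and 760.4 CPM. Groups without overlap in the lower direction were found in 11.8% of all genes tested, and the higher direction was not counted. These 4 genes were named for the smallest unadjusted p of the list, and in none of them did the groups overlap. Their log2 fold changes without the set term were 1.14 ± 0.35 for Tox, 3.39 ± 0.31 for Tox2, -1.57 ± 0.43 for Satb1 and -1.39 ± 0.37 for Lef1 (SE).

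Partners of the Runx factors numbered 12, of which 11 were tested. With the set term 4 fell and 1 rose, against 12.8% and 14.6% of all genes, and the median log2 fold change without it was -0.23. Cbfa2t3, a corepressor of the ETO family, was at 2.79 and 2.3 CPM in CD4+Lrig1+ cells of set 1 and set 2 against 12.1 and 7.50 CPM in CD4+Lrig1- cells. Tle1 and Tle4, corepressors that bind the C-terminal end of Runx proteins, had log2 fold changes of -0.76 ± 0.36 and -0.66 ± 0.29 (SE), each with an adjusted p of 1.0 (edgeR). Runx2, the third Runx factor, was at 22.3 and 13.7 CPM against 15.0 and 9.48 CPM, the opposite direction to Runx1 and Runx3, and Runx1t1 was at 0 in every library. Ep300 and Crebbp, acetyltransferases with long transcripts that were named after their values had been seen, separated by set: Ep300 was at 292 and 326 CPM in the CD4+Lrig1+ and CD4+Lrig1- libraries of set 1 and 65.5 and 85.2 CPM in set 2, and Crebbp at 276 and 342 CPM and 39.7 and 61.2 CPM. Runx3 and Zbtb7b were likewise lower in set 2 in each group, and a part of RNA quality in the start estimates of set 2 was not tested.

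Among 14 signalling genes that act with the coreceptors, 9 were higher and 3 lower in both sets. With the set term 5 rose and none fell, where 14.6% of all genes rose and 12.8% fell, and the median log2 fold change without it was 0.10. Unc119, an adaptor of the kinase Lck, was at 28.4 and 36.7 CPM in CD4+Lrig1+ cells of set 1 and set 2 against 13.1 and 16.6 CPM. Zap70, the kinase recruited to the phosphorylated receptor, was at 346 and 358 CPM against 246 and 246 CPM. Fyn and Cd5 had log2 fold changes of 0.29 ± 0.34 and 0.39 ± 0.38 (SE).

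**Figure D5:**
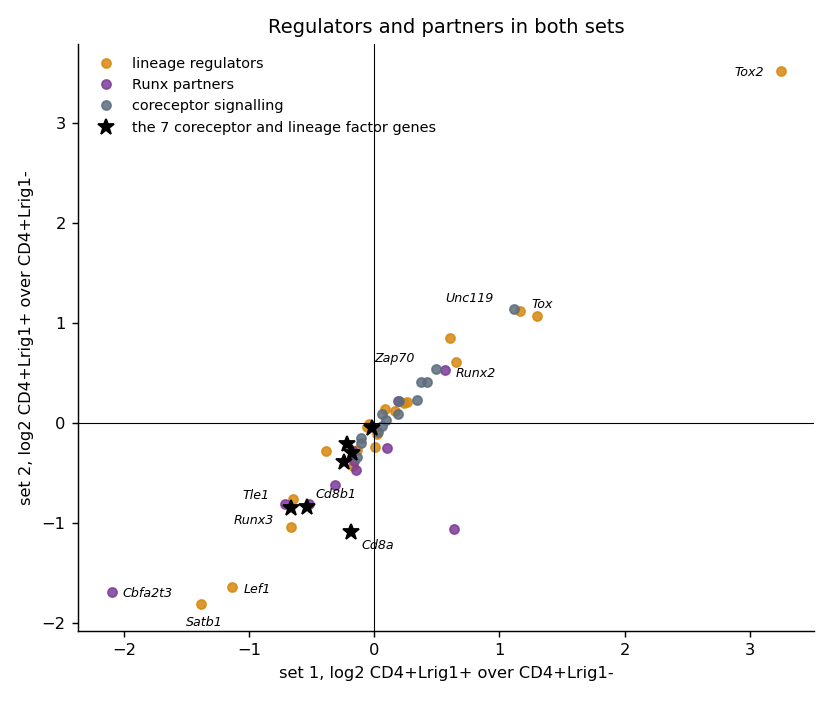
Each point is 1 gene, placed by log2 of the CD4+Lrig1+ level divided by the CD4+Lrig1- level, with set 1 on the x axis and set 2 on the y axis. Stars are the 7 coreceptor and lineage factor genes, all in the lower left quadrant, while Tox and Tox2 lie at the upper right and Satb1 and Lef1 at the lower left. The sets share no library.

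All 9 regulatory T cell genes on the comparison list were higher in CD4+Lrig1+ cells in both sets, at a summed 2529 and 2369 CPM in set 1 and set 2 against 281 and 250.2 CPM, and 8 of them rose with the set term, against 14.6% of all genes. This difference in regulatory T cell transcripts stands beside every value above, and its part in them was not tested.

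Genes whose levels followed Cd4 and Cd8b1 most closely over the 4 libraries were sought among 11577 genes with a mean of at least 100 counts, by the Euclidean distance of centred log2 CPM. For Cd4 they were Abi1 (0.0175), Mtrex (0.019), Ubxn2a (0.0221), Smarcd2 (0.0316) and Elavl1 (0.032). For Cd8b1 they were Lyn (0.173), Gm8623 (0.249), Gm10275 (0.254), Gm13408 (0.273) and Pygl (0.284). Lyn, a Src family kinase of B and myeloid cells, was at 7.83 and 12.6 CPM in the CD4+Lrig1+ and CD4+Lrig1- libraries of set 1 and 25.2 and 45.5 CPM in set 2. Cd8a came 309th in closeness to Cd8b1, at a distance of 0.796. Over 4 points these distances describe the profiles and carry no test.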

How the data were processed

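RNA was extracted with the RNeasy Plus Micro kit, libraries were made with the TruSeq Stranded mRNA kit and read as 50-base pairs. Per the labels the authors used Trimmomatic 0.38, HISAT2 2.1.0, Bowtie2 2.3.4.1 and StringTie 2.1.3b with GRCm38 (mm10). Whether counting used strand is not given in the sources used here. The authors deposited, per transcript, estimated counts, FPKM and TPM, each scaled within its library. The 2 tables used give 1 library of each group; 6 per-sample columns were not used, because their names do not give the Lrig1 group. Groups came from the labels. The planned fit of 6 samples therefore held 4.

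Estimated counts were rounded, summed by gene, filtered with filterByExpr, scaled by the trimmed mean of M-values (CPM) and fitted with edgeR 4.0.16 in R 4.3.3 without a set term, with Benjamini-Hochberg adjustment over all 16123 genes tested; SE is the log2 fold change divided by the root of F. An exact permutation test of 2 against 2 libraries cannot go below 0.333 and was not used. FPKM and TPM served for levels between genes within a library. Ratios within a set have a prior count of 2 for genes and none for transcript starts and summed lists. The share over all transcripts used a prior count of 0.5. The 95% intervals are exact binomial and cover counting error only. Transcript starts within 2000 bases were joined. Alternatives were the set term, DESeq2 1.42.0, edgeR's exact test, limma 3.58.1 on log2 FPKM with a pseudocount of 1 or 0.1, other scalings and filters, curated transcripts and leaving out each library. The code was tested on simulated data.

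The members and all lists were chosen with earlier results of these data known. Genes named were the 7 members, Lrig1, Foxp3, up to 4 genes of each list by smallest unadjusted p, list genes at 0 throughout, and the 5 profiles nearest to Cd4 and to Cd8b1. Ep300, Crebbp, Cst7, Klrg1, Gzmk, Crtam, Cd3d, Cd3e, Gzma, Pacsin1 and Blk were named outside that rule, after their values had been seen. Promoter windows came from RefSeq (GRCm38.p6), which matched 5 of the 7 members. Cd4 and Cd8b1 had no entry.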

Additional observations from a re-analysis of the deposited data

Results flagged for a closer look

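A few values of these genes or of the markers read beside them moved in opposite directions in the 2 sets. With 1 library of each group in a set, none of these differences between sets was tested.

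The upstream start of Zbtb7b was lower in CD4+Lrig1+ than in CD4+Lrig1- cells in set 1, with a log2 ratio of -0.27, and higher in set 2, with one of 0.29. Its estimates are limited by the unsteady division of reads among Zbtb7b transcripts in CD4+Lrig1- cells of set 2. For the downstream start of Runx1 the ratios were -0.13 and 1.26, the latter from 206 and 81 counts.

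In set 1 the summed B cell markers had a log2 ratio of 0.26, against -0.98 in set 2. The sum changed direction although 9 of its 12 markers were lower in CD4+Lrig1+ cells in both sets. The summed markers of type 1 dendritic cells gave 0.042 and -0.038, with Itgae as the marker that ran against most others. Without it the ratios were -0.71 and -0.59, of 1 direction in both sets.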

How the results depend on the processing

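No paired analysis was possible by the replicate numbers of the labels, because the columns carry none. The libraries were instead paired by set: with the set as a term, on 1 residual degree of freedom, 4414 genes passed instead of 0, and the log2 fold changes of the members that then passed were -0.73 for Cd8a, -0.70 for Cd8b1, -0.24 for Runx1, -0.76 for Runx3 and -0.32 for Cbfb. DESeq2's Wald test called 313 genes and edgeR's exact test 213. Cd4 turned to 0.014 in limma with either FPKM pseudocount, and within set 2 by FPKM its ratio was 0.049. FPKM lacks the trimmed-mean scaling, whose factors in set 2 were 0.967 for CD4+Lrig1+ and 0.901 for CD4+Lrig1-. Every member had a higher set 2 ratio by FPKM than by CPM, with Cd8b1 at -0.741 against -0.838. The cause of the change of sign was not tested separately. The other full-library alternatives without the set term kept each direction, with Runx3 between -0.80 and -0.58 and Cd8b1 between -0.81 and -0.60.

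Leaving out each library in turn, in fits without the set term so that differences between sets enter, gave 2 to 90 calls and log2 fold changes of -0.14 to 0.10 for Cd4, -2.47 to 1.30 for Cd8a, -1.92 to 0.60 for Cd8b1, -0.63 to 0.26 for Zbtb7b, -0.26 to -0.18 for Runx1, -1.08 to -0.45 for Runx3 and -0.52 to -0.05 for Cbfb. Both Cd8 genes turned positive without CD4+Lrig1- of set 2, Cd4 without CD4+Lrig1+ of set 1 (0.096) or CD4+Lrig1- of set 2 (0.09), and Zbtb7b without CD4+Lrig1+ of set 2 (0.112) or CD4+Lrig1- of set 1. Of 42 within-set values of the members under other settings, 41 were lower in CD4+Lrig1+ cells and 15 lay beyond the counting interval. Scaling to Cd3d, Cd3e and Cd3g lowered every ratio of a set, and a prior count of 0.5 hardly changed them. Of these settings only FPKM could therefore turn a ratio positive. Without Itgae, an alternative chosen after seeing the data, the type 1 dendritic cell sums had log2 ratios of -0.71 and -0.59. Depth limits Cd8a in set 1 most.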
